A study of Homo sapiens with 33 samples.

Results

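WNT1, WNT4, LMX1A, MSX1, MSX2, PAX3 and ZIC1 are genes of the dorsal midline of the neural tube and of the border of the neural plate. Their levels were followed through the differentiation of human embryonic stem cells under 2 combinations of inhibitors. Each gene was represented by the probe annotated to its symbol that had the highest mean signal in the non-normalized table, which gave 7 of the 18852 gene symbols on the array. No measured difference entered the choice of the probe, but the genes themselves were chosen with earlier results of these data known. A probe was tested where its detection p, the array software's comparison of a probe with negative controls, stayed under 0.01 on each of the 3 arrays in 1 group or more. This left 10038 genes, among them 6 of the 7. ZIC1, detected on 2 of 33 arrays, was not tested and is described by its values.

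The data are 33 bead arrays of total RNA from H9, an established line of human embryonic stem cells, in 11 groups of 3 arrays lettered A, B and C. H9 is a single line. It was maintained on mouse embryonic fibroblasts in medium with FGF2 and plated on matrigel, a basement membrane extract, for differentiation. One arm, LSB, received LDN-193189, which blocks the type I receptors of BMP ligands, with SB431542, which blocks the receptors of TGF-beta, activin and nodal, and was sampled at days 2, 3, 5, 7 and 9 and again at day 15. The other arm, 3i, received the same pair together with CHIR 99021, a GSK3 inhibitor that activates Wnt signalling, DAPT, which blocks gamma-secretase and with it Notch signalling, and SU5402, which blocks FGF and VEGF receptors, and was sampled on the same days from day 3 on. No 3i array of day 2 was analysed here. Both arms therefore carried the inhibitors of BMP and of TGF-beta, activin and nodal signalling, and the labels do not say on which days a compound was added or withdrawn. Whether arrays A, B and C of a group stem from separate cultures is not given either, and the p-values therefore reflect no more than the spread among these arrays, which may be technical. The RNA is from bulk cultures, in which fewer cells of a type and less RNA per cell cannot be told apart.

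Where the neural plate meets the surface ectoderm, its border gives rise to the neural crest and, after the plate folds, to the dorsal midline of the neural tube, the roof plate. WNT and BMP ligands from the surrounding ectoderm and from the roof plate itself pattern this region, and GSK3 inhibition switches on the beta-catenin arm of WNT signalling inside cells. WNT1 and WNT4 encode secreted ligands. LMX1A is a LIM homeobox factor required for the roof plate in mice, MSX1 and MSX2 are homeobox factors of the dorsal midline and the plate border that respond to BMP and WNT signals, PAX3 is a paired box factor of the dorsal neural tube and the neural crest, and ZIC1 is a zinc finger factor of the dorsal neural plate.

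In 3i cultures WNT1, LMX1A and MSX1 went from low levels at day 3 to high levels at days 7 and 9, and all 3 were lower again at day 15. WNT4 was higher in 3i than in LSB already at day 3, reached its highest 3i levels at days 5 and 7, and was lower in 3i than in LSB at day 15. MSX2 and PAX3 reached detectable levels in 3i at days 7 and 9 only, close to the detection limit. Single LSB arrays detected them too, MSX2 at days 2, 7 and 15 and PAX3 at day 7. The highest log2 normalized level of either gene was on such an LSB array. In intensities before normalization, the mean of MSX2 was 441 at 3i day 9 and 253 at LSB day 15. That of PAX3 was 443 at 3i day 9 and 172 at LSB day 7. MSX2 was lower in 3i than in LSB at day 15, a call lost without the 1 LSB array that detected it. Under LSB, WNT1 was never detected, LMX1A appeared at days 3 and 5, MSX1 on every array of days 9 and 15 and WNT4 at day 15. At day 9 WNT1, LMX1A, MSX1, MSX2 and PAX3 were higher in 3i, and the WNT4 call of that day was lost without the 1 array that detected it.

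Levels are log2 normalized intensities, and differences are in log2 units with their standard error. The scales of different probes cannot be set against each other, so each gene is compared only with itself. Calls required both a difference of at least 1 log2 unit, which is 2-fold, and a Benjamini-Hochberg adjusted p under 0.05 in one limma fit of all 10038 genes, and "higher", "lower", "rose" and "fell" are used of differences only where that was met. Where no array of one group detected a probe, a call is also given as a bound where that exceeds 1-fold, "at least" so many fold. The bound sets the brighter group's mean against the dimmer group's mean of, on each array, the lowest signal among detected probes or the probe's own signal if that was higher.

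The arrays had mean signals of 298 to 872 and detected 9320 to 13743 of 48803 probes. The LSB day 7 arrays stood apart, with mean signals of 496, 445 and 298 and mean correlations with each other of 0.844 to 0.899, and their lowest detected signal, 7.12 to 7.76 on the log2 scale, was above the 6.33 to 7.07 of the other arrays. In 3i, array A of day 5 correlated with arrays B and C of day 3 at 0.989 and with those of its own day at 0.959. The corresponding values were 0.989 and 0.958 for array A of day 7 against day 5, and 0.986 and 0.970 for array A of day 9 against day 7. The labels were kept, and results for these days are given with the A arrays of 3i days 3, 5, 7 and 9 and, where it matters, without them.

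**Figure D1:**
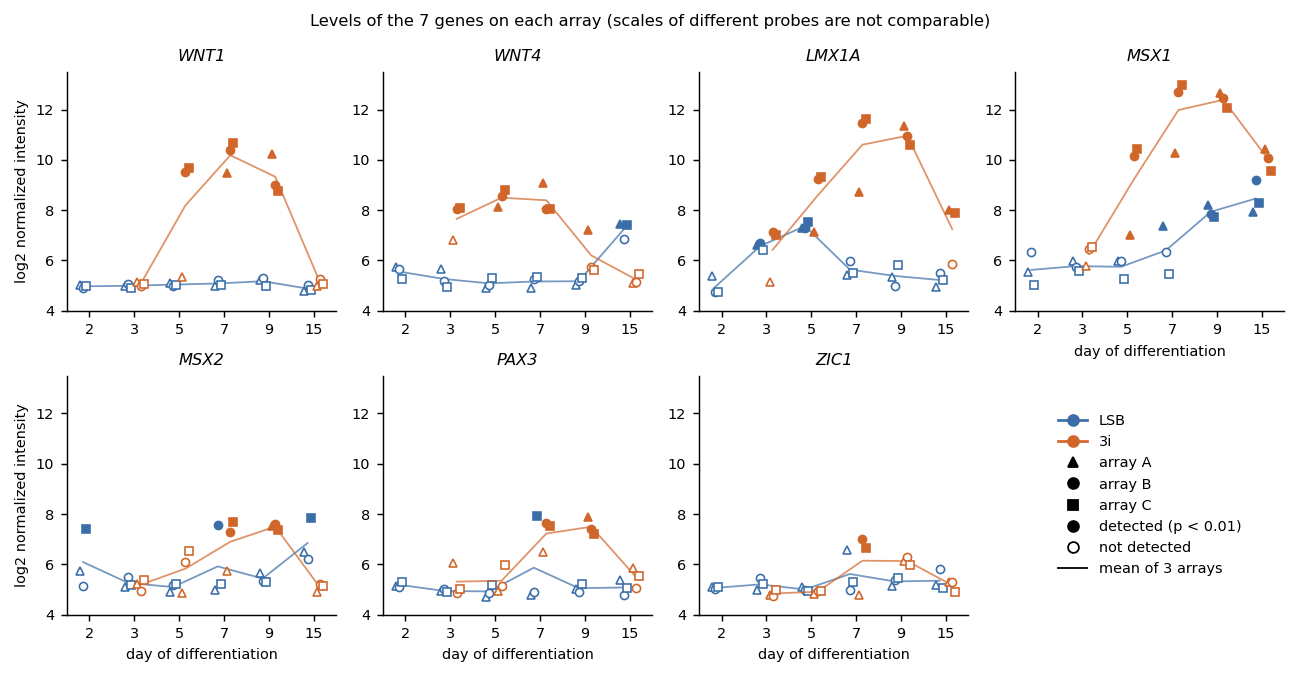
Log2 normalized intensity of the 7 genes on each of the 33 arrays by day, for LSB (blue) and 3i (orange); lines join the means of 3 arrays, filled symbols are arrays with a detection p under 0.01, and triangles, circles and squares are arrays A, B and C. WNT1, LMX1A and MSX1 are high in 3i at days 7 and 9, WNT4 is high from day 3 to day 7, and ZIC1 is detected on 2 arrays only.

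The sequences upstream of the transcription starts are shown because the 3i arm received an activator of WNT signalling. The nuclear factors of that pathway, TCF and LEF, bind a short motif. The windows are the 250 bases before the starts listed by RefSeq on build GRCh38.p14, read 5′ to 3′ on the strand of the gene. All 7 genes had a window, and LMX1A had 2, which makes 8. Printed are those of WNT1 (chr12:48978072-48978321, plus strand), LMX1A (chr1:165356716-165356965, minus strand, the first of its windows), MSX1 (chr4:4859415-4859664, plus strand), MSX2 (chr5:174724332-174724581, plus strand) and PAX3 (chr2:222298999-222299248, minus strand). Capitals mark CCAAT on either strand and TAATTA.
WNT1: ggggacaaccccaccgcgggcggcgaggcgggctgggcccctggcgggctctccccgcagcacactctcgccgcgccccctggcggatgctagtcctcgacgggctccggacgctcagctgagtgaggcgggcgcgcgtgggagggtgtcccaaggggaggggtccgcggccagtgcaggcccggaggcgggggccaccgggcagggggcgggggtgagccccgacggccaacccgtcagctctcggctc
LMX1A: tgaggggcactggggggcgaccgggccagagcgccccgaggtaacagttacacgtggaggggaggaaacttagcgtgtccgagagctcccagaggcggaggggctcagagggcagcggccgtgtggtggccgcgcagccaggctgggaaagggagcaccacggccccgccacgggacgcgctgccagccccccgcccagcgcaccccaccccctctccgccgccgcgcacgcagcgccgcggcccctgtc
MSX1: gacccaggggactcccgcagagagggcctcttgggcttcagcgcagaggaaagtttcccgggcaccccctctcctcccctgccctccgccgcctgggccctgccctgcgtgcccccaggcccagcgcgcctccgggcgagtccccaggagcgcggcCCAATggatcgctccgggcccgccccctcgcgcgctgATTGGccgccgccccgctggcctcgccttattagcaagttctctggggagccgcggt
MSX2: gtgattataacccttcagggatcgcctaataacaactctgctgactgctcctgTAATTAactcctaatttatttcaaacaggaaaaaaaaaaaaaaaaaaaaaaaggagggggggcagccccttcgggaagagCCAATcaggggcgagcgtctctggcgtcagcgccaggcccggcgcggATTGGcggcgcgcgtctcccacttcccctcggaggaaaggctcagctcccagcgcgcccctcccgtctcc
PAX3: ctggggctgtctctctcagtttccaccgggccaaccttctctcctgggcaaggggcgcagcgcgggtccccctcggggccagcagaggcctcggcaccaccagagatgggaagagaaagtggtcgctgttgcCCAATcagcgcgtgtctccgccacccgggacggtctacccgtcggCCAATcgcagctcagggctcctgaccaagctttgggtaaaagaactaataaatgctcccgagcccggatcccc
The TCF and LEF motif was searched as CTTTGAT and CTTTGAA on both strands, and neither occurred in any of the 8 windows; 5.94% of 35116 RefSeq windows of the same length hold one. CCAAT, the core of the box bound by the factor NF-Y, was present on either strand in 32.0% of those windows. It occurred 2 times each in MSX1, MSX2, PAX3 and ZIC1 and not in WNT1, WNT4 or LMX1A. Counted from the start, the matches began at positions -94 and -57 in MSX1, -117 and -70 in MSX2, -118 and -73 in PAX3, and -155 and -80 in ZIC1. TAATTA, a core of homeodomain sites that reads the same on both strands and was found in 4.35% of windows, occurred in MSX2 alone, at position -197. The GC content was 78.4% in the WNT1 window and 55.6% in the MSX2 window. A match describes these letters and is not a bound site, and the lack of one says only that the letters are not in this window.

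WNT1, the ligand of the dorsal midline and of the boundary between midbrain and hindbrain, lies on chromosome 12 at 48978322 to 48982620 of GRCh38.p14. Its probe was detected on 8 of 33 arrays, all of them 3i arrays of days 5, 7 and 9. On the 18 LSB arrays it lay between 4.77 and 5.30. The 3i arrays A, B and C gave 5.14, 4.99 and 5.06 at day 3 and 5.35, 9.53 and 9.70 at day 5, so that array A of day 5 stayed at the level of day 3 while the other arrays of that day were detected. At day 7 they gave 9.48, 10.40 and 10.68, at day 9 10.25, 8.98 and 8.75, and at day 15 5.00, 5.27 and 5.08. The groups 3i day 7, 3i day 9 and 3i day 5 came first in the order of levels, and neighbours in that order overlapped. The probe was detected on no array of the other 8 groups, and neighbours among them overlapped as well.

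WNT1 was higher in 3i than in LSB at day 5 by 3.16 ± 0.62 (adjusted p = 0.0021, at least 2.90-fold), at day 7 by 5.10 ± 0.62 (adjusted p = 1.12e-06, at least 7.06-fold) and at day 9 by 4.16 ± 0.62 (adjusted p = 1.18e-05, at least 6.88-fold). Without the 4 A arrays the 3 differences were 4.58, 5.46 and 3.70. At days 3 and 15 both arms were undetected. Within 3i, WNT1 rose from day 3 to day 5 by 3.13 ± 0.62 (adjusted p = 0.0111, at least 2.51-fold) and fell by 4.21 between day 9 and day 15 (SE 0.62, adjusted p = 4.22e-06, at least 5.55-fold). The rise to day 5 lost its call without array A of day 3 (adjusted p = 0.126), array B of day 5 (0.202) or array C of day 5 (0.183). Without all 4 A arrays it was 4.59 ± 0.17.

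WNT4, a ligand of the dorsal neural tube, the kidney and the female reproductive tract, lies on chromosome 1 at 22117313 to 22143097. It was the earliest of the genes to separate the arms. The LSB arrays gave 5.65, 5.18 and 4.96 at day 3, and the 3i arrays of the same day 6.81, 8.06 and 8.08. In 3i the values were 8.12, 8.56 and 8.81 at day 5, 9.10, 8.03 and 8.05 at day 7, 7.21, 5.76 and 5.62 at day 9, and 5.11, 5.14 and 5.47 at day 15. Under LSB the probe was undetected from day 2 to day 9, at 4.91 to 5.74, and the day 15 arrays gave 7.45, 6.85 and 7.40. The arms thus changed places between day 9 and day 15, and the 6 arrays of day 15 did not overlap.

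The WNT4 difference between 3i and LSB was 2.39 ± 0.35 at day 3 (adjusted p = 0.000549, at least 2.19-fold), 3.41 ± 0.35 at day 5 (adjusted p = 4.52e-07, at least 3.58-fold) and 3.23 ± 0.35 at day 7 (adjusted p = 2.71e-07, at least 2.04-fold). At day 9 it was 1.02 ± 0.35 (adjusted p = 0.0314), with no bound above 1-fold, and this call was lost without array A of 3i day 9 (0.52, adjusted p = 0.287), which alone of that group was detected, and without any single LSB array of that day (adjusted p 0.0547 to 0.087). It was lost under 11 of 15 alternatives. At day 15 WNT4 was lower in 3i by 1.99 ± 0.35 (adjusted p = 4.78e-05, at least 1.29-fold). It rose by 2.06 ± 0.35 between LSB day 9 and day 15 (adjusted p = 6.78e-05, at least 1.60-fold). In 3i it fell by 1.46 from day 3 to day 9 (SE 0.35, adjusted p = 0.00288), with overlapping arrays, and by 2.38 without the A arrays. From 3i day 9 to day 15 the difference of -0.96 was short of the size a call needs, and it was called without array B (-1.18) or C (-1.24) of day 9 or array C of day 15 (-1.07).

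LMX1A, on chromosome 1 at 165201867 to 165356715, was detected on 18 arrays in both arms. The LSB arrays gave 5.38, 4.73 and 4.73 at day 2, 6.61, 6.69 and 6.41 at day 3, and 7.28, 7.28 and 7.54 at day 5, when all 3 were detected. From day 7 to day 15 the 9 LSB arrays lay between 4.94 and 5.99, all undetected. In 3i the values were 5.15, 7.13 and 7.00 at day 3, 7.15, 9.25 and 9.33 at day 5, 8.71, 11.46 and 11.65 at day 7, 11.35, 10.93 and 10.60 at day 9, and 8.01, 5.86 and 7.87 at day 15. LMX1A was thus detected in both arms at days 3 and 5, and at days 7 and 9 in 3i alone. At LSB day 7 the lowest detected signal was 7.12 to 7.76, above the LSB levels of day 3. The lack of detection on that day therefore does not show absence.

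The arms differed by -0.14 ± 0.63 at day 3 and by 1.21 ± 0.63 at day 5 (adjusted p = 0.339), where they overlapped through array A of 3i. Without the A arrays the day 5 difference was 1.92 ± 0.41 (adjusted p = 0.00384). LMX1A was higher in 3i by 4.97 ± 0.63 at day 7 (adjusted p = 2.31e-06, at least 9.45-fold) and by 5.58 ± 0.63 at day 9 (adjusted p = 2.31e-07, at least 21.3-fold), the largest bound of the 6 genes between the arms. At day 15 it was still higher, by 2.03 ± 0.63 (adjusted p = 0.0102, at least 1.36-fold). That call was lost without array A (1.65, adjusted p = 0.0606) or array C (1.72, adjusted p = 0.0546) of 3i day 15, with the authors' processed values (0.92, adjusted p = 0.0655) and for the second probe (0.04, adjusted p = 0.897). Array B of 3i day 15 was undetected. Within LSB no change of LMX1A was called; its difference between day 9 and day 3 was -1.18 ± 0.63 (adjusted p = 0.179), and it was called in the fit without the A arrays of 3i (adjusted p = 0.0174). A second LMX1A probe was detected on none of the 33 arrays; it correlated with the first at 0.789 and differed between the arms by 0.77 at day 7 and 0.74 at day 9, short of a call.

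MSX1, on chromosome 4 at 4859665 to 4863936, was detected on 19 arrays and reached the brightest signals of its probe in 3i at days 7 and 9. The 3i arrays gave 5.79, 6.44 and 6.53 at day 3, 7.02, 10.17 and 10.44 at day 5, 10.28, 12.72 and 12.96 at day 7, 12.66, 12.46 and 12.05 at day 9, and 10.43, 10.06 and 9.56 at day 15. Under LSB the values were 5.54, 6.32 and 5.01 at day 2, 5.98, 5.74 and 5.60 at day 3, 5.98, 5.99 and 5.27 at day 5, and 7.39, 6.35 and 5.46 at day 7. At LSB day 9 they were 8.21, 7.86 and 7.73, and at day 15 7.91, 9.19 and 8.29. MSX1 was therefore the gene of the 7 that both arms had gained by day 9, and no LSB array reached the lowest 3i array of day 7.

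MSX1 was higher in 3i by 3.46 ± 0.66 at day 5 (adjusted p = 0.00168, at least 5.87-fold), by 5.59 ± 0.66 at day 7 (adjusted p = 7.88e-07) and by 4.45 ± 0.66 at day 9 (adjusted p = 1.18e-05). At LSB day 7 the probe was detected on 1 of 3 arrays, and no fold is given for that day. The day 9 value corresponds to 21.9-fold, between groups detected on every array. At day 15 the groups did not overlap but the difference of 1.56 ± 0.66 was not called (adjusted p = 0.0565). It was called without array B of LSB day 15 (1.92, adjusted p = 0.0387) and without the A arrays of 3i days 3 to 9, which changes only the estimated spread (adjusted p = 0.00225). Within LSB, MSX1 rose from day 3 to day 9 by 2.16 ± 0.66 (adjusted p = 0.0154, at least 2.67-fold). This was lost without array C of day 3 (adjusted p = 0.0517) or array A of day 9 (adjusted p = 0.0532). Within 3i it rose from day 3 to day 9 by 6.14 ± 0.66, at least 46.0-fold (adjusted p = 2.21e-07), and fell by 2.37 from day 9 to day 15 (SE 0.66, adjusted p = 0.00479). Its rise from day 3 to day 5, 2.95 ± 0.66 (adjusted p = 0.0184, at least 5.07-fold), lost its call without array A of day 3 (adjusted p = 0.182), array B of day 5 (0.225) or array C of day 5 (0.262).

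MSX2, the paralog of MSX1 on chromosome 5 at 174724582 to 174730896, was detected on 8 arrays. Of these, 5 were 3i arrays: the values were 5.73, 7.30 and 7.67 at day 7, with arrays B and C detected, and 7.54, 7.59 and 7.37 at day 9, with all 3 detected. At days 3 and 15 the 3i arrays lay between 4.88 and 5.39. The 3 detected LSB arrays stood alone in their groups, namely array C of day 2 at 7.39, array B of day 7 at 7.56 and array C of day 15 at 7.85. The other arrays of these groups lay between 4.98 and 6.48.

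The arms differed in MSX2 by 0.98 ± 0.57 at day 7 (adjusted p = 0.192), and the difference was called without array B of LSB day 7 (1.81, adjusted p = 0.0108) or array A of 3i day 7 (1.57, adjusted p = 0.0482). MSX2 was higher in 3i at day 9 by 2.07 ± 0.57 (adjusted p = 0.00786, at least 1.93-fold). At day 15 it was lower in 3i by 1.77 ± 0.57 (adjusted p = 0.0131), against an LSB group with 1 of 3 arrays detected. Without that array the difference was -1.27 (adjusted p = 0.1), and no bound above 1-fold could be given. Its rise in 3i from day 3 to day 7, 1.71 ± 0.57 (adjusted p = 0.0392, at least 1.02-fold), was lost without any 1 of 5 of the 6 arrays (adjusted p 0.0631 to 0.214). Within 3i MSX2 rose from day 3 to day 9 by 2.31 ± 0.57 (adjusted p = 0.00335, at least 1.55-fold) and fell by 2.43 to day 15 (SE 0.57, adjusted p = 0.00117, at least 1.56-fold).

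PAX3, on chromosome 2 at 222199887 to 222298998, was detected on 6 arrays. In 3i it gave 6.49, 7.66 and 7.53 at day 7 and 7.87, 7.41 and 7.20 at day 9, against 4.85 to 6.07 on the other 9 arrays of that arm. The LSB arrays lay between 4.69 and 5.39 with 1 exception, array C of day 7 at 7.91, which is the array with the lowest mean signal of all 33. PAX3 was higher in 3i at day 9 by 2.44 ± 0.50 (adjusted p = 0.000589, at least 1.93-fold), and those groups did not overlap. At day 7 they did, and the difference of 1.36 ± 0.50 (adjusted p = 0.039) was 2.38 without array C of LSB (adjusted p = 1.78e-05). The day 7 call was lost without array A or B of LSB (adjusted p 0.224 and 0.201) or array B or C of 3i (adjusted p 0.144 and 0.123). Of the 3 other PAX3 probes, 2 were detected on 2 arrays each and 1 on none. They correlated with the first at 0.627 to 0.752.

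ZIC1, on chromosome 3 at 147409365 to 147416719, lay near the background in both arms. The 3i arrays gave 4.78, 6.99 and 6.65 at day 7, with arrays B and C detected, and 6.14, 6.30 and 5.95 at day 9, with none detected. The other 9 arrays of 3i lay between 4.73 and 5.31. The highest LSB array was array A of day 7 at 6.58, undetected, and the other 17 lay between 4.93 and 5.80. In a fit without the filter, over 18852 genes, the difference between the arms was 0.53 ± 0.37 at day 7 (adjusted p = 0.351) and 0.81 ± 0.37 at day 9 (adjusted p = 0.169), so that none of the 5 days gave a call for ZIC1. In the same fit 3i day 7 exceeded 3i day 3 by 1.30 ± 0.37 (adjusted p = 0.0251), with 2 arrays of day 7 detected. The 3i day 9 level exceeded that of 3i day 3 by 1.29 ± 0.37 (adjusted p = 0.0171), between groups of which no array detected the probe. All 3 arrays of 3i day 9 had a detection p under 0.05.

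**Figure D2:**
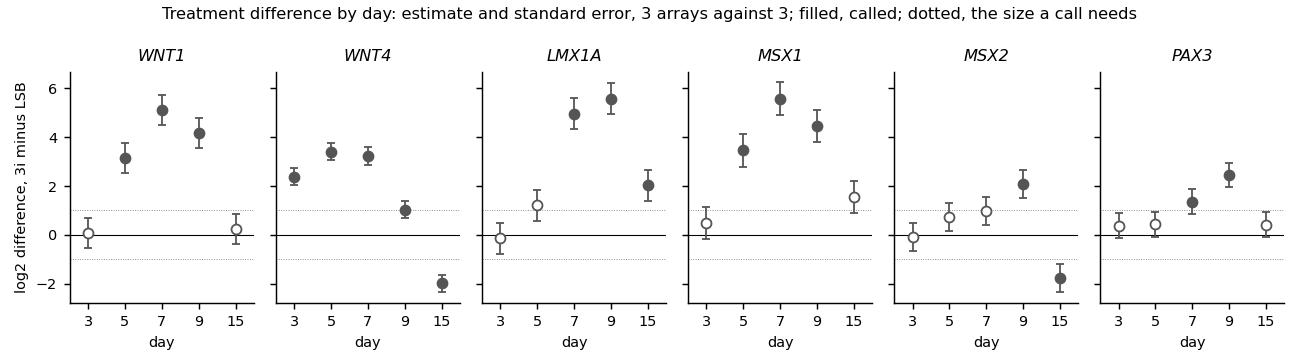
Difference between 3i and LSB (log2 units, 3 arrays against 3) for the 6 tested genes by day, with the standard error of the limma fit; filled points were called, and dotted lines mark 1 log2 unit. WNT4 is called from day 3, WNT1 and MSX1 from day 5, LMX1A and PAX3 from day 7 and MSX2 at day 9, and WNT4 and MSX2 are below -1 at day 15.

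Set against all genes, the 6 stood as follows. At day 3, 1 of 6 was higher in 3i, where 0.0498% of all genes tested were (5 genes). At day 5, 3 of 6 were higher against 1.1% of all genes, and at day 7, 5 of 6 against 12.8%. At day 9 the 6 were higher, against 8.32%. At day 15, 1 of 6 was higher against 13.3% and 2 of 6 were lower against 15.8%, shares of the same order as those of all genes. These counts leave out ZIC1 and carry no support of their own, because MSX2 and PAX3 passed the filter only through 3i day 9, WNT1 through 3i days 7 and 9 and WNT4 through 3i days 5 and 7, so that they had to be high there. LMX1A and MSX1 passed through groups of both arms. The same holds for the counts over time and for the lists described after them. No tested member was lower in 3i at day 3 (0.209% of all genes), day 5 (2.12%), day 7 (6.51%) or day 9 (8.26%). The arrays of 3i lay wholly above those of LSB for 1 of 6 members at day 3 (7.1% of all genes), 3 at day 5 (17.5%), 4 at day 7 (19%), 6 at day 9 (28.1%) and 2 at day 15 (22.1%). In median scaling, quantile normalization was replaced by giving every array the same median over the probes detected on all arrays. Under it, all genes called split at day 7 into 630 higher and 1310 lower, against 1285 and 653. At day 15 they split into 1442 and 1113, against 1337 and 1590. The median difference over all genes then moved from 0.09 to -0.12 at day 7 and from -0.10 to 0.04 at day 15. Of the members' calls, those of PAX3 at day 7 (0.66, adjusted p = 0.33), WNT4 at day 9 (0.96, adjusted p = 0.0708) and MSX2 at day 15 (-1.25, adjusted p = 0.0655) were lost under that scaling. Fitting only the 2 groups compared, the calls of WNT4 at day 3 (adjusted p = 0.0749) and day 9 (adjusted p = 0.0723), WNT1 at day 5 (adjusted p = 0.109) and PAX3 at day 7 (adjusted p = 0.356) were lost.

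Along the 3i arm, 2 of 6 members rose from day 3 to day 5 (0.667% of all genes), 5 of 6 from day 3 to day 7 (5.49%) and the same 5, WNT1, LMX1A, MSX1, MSX2 and PAX3, from day 3 to day 9 (8.48%), while WNT4 was 1 of the 8.35% of genes that fell in that interval. From day 9 to day 15 these 5 fell, where 14.9% of all genes did. Along the LSB arm none of the 6 was called between days 3 and 5 (3.89% of all genes were called in either direction) or between days 3 and 7 (20.9%). MSX1 rose from day 3 to day 9 (7.28%) and WNT4 from day 9 to day 15 (9.75%). Under median scaling all genes called split into 1707 higher and 894 lower from 3i day 9 to day 15 (1311 and 1500 otherwise), 78 and 242 from 3i day 3 to day 5 (67 and 122), 1196 and 809 from LSB day 9 to day 15 (979 and 1006), and 1066 and 871 from LSB day 3 to day 7 (684 and 1418).

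The change over time was itself compared between the arms. From day 3 to day 9, the change in 3i exceeded that in LSB by 4.09 ± 0.87 for WNT1 (adjusted p = 0.0026), 5.72 ± 0.89 for LMX1A (adjusted p = 0.000104) and 3.98 ± 0.93 for MSX1 (adjusted p = 0.00556). These are 3 of 6 members, where 4.99% of all genes were called in that direction. MSX2 at 2.14 ± 0.81, PAX3 at 2.07 ± 0.71 and WNT4 at -1.37 ± 0.50 were not called (adjusted p 0.0614 to 0.092). Without the A arrays WNT4 was called at -2.29 ± 0.32 (adjusted p = 1.79e-05). From day 9 to day 15 the difference was negative and called for all 6, where 14.6% of all genes were, and ranged from -2.03 ± 0.71 for PAX3 (adjusted p = 0.0293) to -3.92 ± 0.87 for WNT1 (adjusted p = 0.00103). The PAX3 call was lost without array A or B of LSB day 9, array A of LSB day 15, array A of 3i day 9 or array B of 3i day 15 (adjusted p 0.0501 to 0.072), and without the 4 A arrays (-1.84, adjusted p = 0.0581). The MSX1 call, -2.90 ± 0.93, was lost without array B of LSB day 15 (-2.54, adjusted p = 0.0523).

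The arrays lettered A of 3i days 5, 7 and 9 were compared with arrays B and C gene by gene. Of the 21 values of these 3 arrays, 20 lay nearer to the mean of B and C on the sampling day before than to the mean of B and C on their own day, the exception being ZIC1 at day 9. For 3 of them, MSX2, PAX3 and ZIC1 at day 5, arrays B and C of both days were undetected. For MSX2 at day 9 both means were 7.48 and array A was 7.54. Over all genes these arrays also correlated more closely with B and C of the sampling day before, so the count is not particular to the members. WNT1 on array A of day 5 was 5.35, where B and C averaged 9.61 on that day and 5.02 at day 3. MSX1 on array A of day 7 was 10.28, where B and C averaged 12.84 on that day and 10.30 at day 5. Without the 4 A arrays, 4 of 6 members were higher in 3i at day 5, LMX1A joining, 6 of 6 at day 7 and 5 of 6 at day 9, WNT4 leaving. All genes called higher then numbered 165, 1307 and 893 of 10038. Why these arrays lie where they do was not tested.

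**Figure D3:**
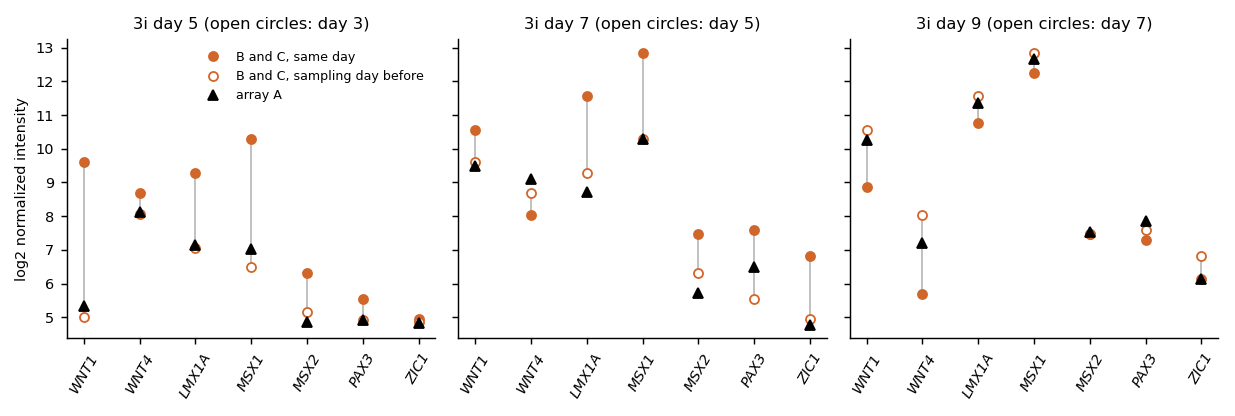
Log2 normalized intensity of the 7 genes on array A of 3i days 5, 7 and 9 (triangles), with the mean of arrays B and C of the same day (filled circles) and of the sampling day before (open circles); grey lines join both means. The triangles lie next to the open circles at day 5 for WNT1, LMX1A and MSX1 and at day 7 for MSX1.

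Over the 33 arrays, which share treatment, day and the normalization, the 7 genes were related to different degrees, given as Pearson correlations of log2 levels and as a description only. WNT1 and LMX1A correlated at 0.880, WNT1 and MSX1 at 0.818, and LMX1A and MSX1 at 0.785. WNT4 stood apart, with 0.578 to WNT1, 0.424 to LMX1A, 0.407 to MSX1 and -0.007 to ZIC1. The paralogs MSX1 and MSX2 correlated at 0.549.

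Among all genes tested, the genes whose levels correlated most closely with WNT1 over the 33 arrays were APCDD1, which encodes a membrane inhibitor of WNT signalling (0.913), MYL4, a myosin light chain (0.908), and SERTM2 (0.896). For LMX1A they were APCDD1 (0.918), NKD1, an inhibitor of the WNT pathway (0.896), and DOCK8 (0.888). For MSX1 they were COLEC12, a scavenger receptor (0.942), SNAI2, a factor of the neural crest (0.907), and BMP5, a BMP ligand (0.907). WNT4 came closest to DMBX1, a homeobox gene of the midbrain (0.840), ID2, a BMP target (0.821), and MALT1 (0.818). For PAX3 they were ZPLD1 (0.866), WNT3A, another ligand of the dorsal midline (0.796), and DACT1 (0.791), and for MSX2 EIF5, a translation initiation factor (0.784), SAMD11 (0.767) and DHRS1 (0.756).

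Other genes of the region and of the pathways that act on it were taken from lists. Over all genes tested, the shares higher in 3i at days 3, 5, 7, 9 and 15 were 0.0498%, 1.1%, 12.8%, 8.32% and 13.3%, and those lower 0.209%, 2.12%, 6.51%, 8.26% and 15.8%. The median difference over all genes on those days was -0.01, -0.00, 0.09, 0.01 and -0.10. Of 21 other roof plate and dorsal neural tube genes, 11 were tested. In 3i against LSB none was called at day 3, 2 were higher at day 5, 8 at day 7 and 6 at day 9, and at day 15, 3 were higher and 2 lower. The list's median difference was 1.82 at day 7 and 1.71 at day 9, against 0.09 and 0.01 for all genes. WNT3A was higher by 4.06 ± 0.66 at day 7 (adjusted p = 4.9e-05, at least 4.83-fold) and BMP5 by 3.66 ± 0.42 at day 9 (adjusted p = 3.01e-07, at least 7.17-fold). BARHL1, a homeobox gene of dorsal interneurons, was higher by 3.51 ± 0.72 at day 5 (adjusted p = 0.00312, at least 4.52-fold), and ZIC4, a relative of ZIC1, by 2.89 ± 0.50 at day 9 (adjusted p = 7.61e-05, at least 2.48-fold). At day 15 GDF7, a roof plate BMP ligand, was higher by 2.82 ± 0.51 (adjusted p = 6.3e-05, at least 2.78-fold) and RSPO3, which amplifies WNT signalling, by 2.51 ± 0.49 (adjusted p = 0.000131), while BMP7 (-2.52 ± 0.46, adjusted p = 6.16e-05) and ZIC2 (-1.57 ± 0.25, adjusted p = 1.02e-05) were lower.

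Of 17 other WNT genes, 6 were tested: at day 7, 3 were higher and 1 lower in 3i, and at day 9, 2 were higher and 2 lower. Those lower at day 9 were WNT5B (-4.34 ± 0.32, adjusted p = 2.79e-10, at least 17-fold) and WNT7B (-3.34 ± 0.29, adjusted p = 3.42e-09, at least 3.71-fold), and those higher were WNT3A (4.58 ± 0.66, at least 9.66-fold) and WNT2B (2.52 ± 0.67). The WNT genes thus did not move one way. Of 11 tested feedback targets of the WNT pathway, which beta-catenin switches on, none was called at day 3, 7 were higher at day 5, 8 at day 7 and 9 at day 9, with list medians of 2.10, 2.73 and 2.76. AXIN2, the most general of these targets, differed by 1.40 ± 0.37 at day 3 (adjusted p = 0.197) and was higher by 3.04 ± 0.37 at day 7 (adjusted p = 1.35e-06). At day 15, 3 were higher and 2 lower, and DKK1, a secreted WNT inhibitor, was among the latter with -4.80 ± 0.59 (adjusted p = 2.13e-07, at least 12.4-fold).

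Of 8 tested BMP and SMAD targets, 3 were higher and 2 lower in 3i at day 9, and 5 were lower at day 15. ID3, a BMP target, was higher by 1.74 ± 0.26 at day 9 (adjusted p = 1.12e-05) and ID4 lower, at -2.24 ± 0.34 (at least 3.55-fold). At day 15 ID1 was lower, at -3.61 ± 0.59 (adjusted p = 1.43e-05). Whether the members follow these targets was not tested. Of 6 tested plate border genes, 2 were higher and 2 lower at day 7. TFAP2A, a factor of the border and the crest, was higher by 4.45 ± 0.44 at day 7 (adjusted p = 6.51e-08, at least 5.45-fold), TFAP2C by 3.60 ± 0.40 (at least 7.19-fold), while HES4 (-4.37 ± 0.28) and DLX5 (-2.14 ± 0.57) were lower. The border list therefore changed in both directions. Of the 6 tested members none was lower at days 5 to 9, but WNT1, WNT4, MSX2 and PAX3 passed the filter only through 3i groups. The members and the border list can therefore not be set against each other in direction, and that difference was not tested.

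**Figure D4:**
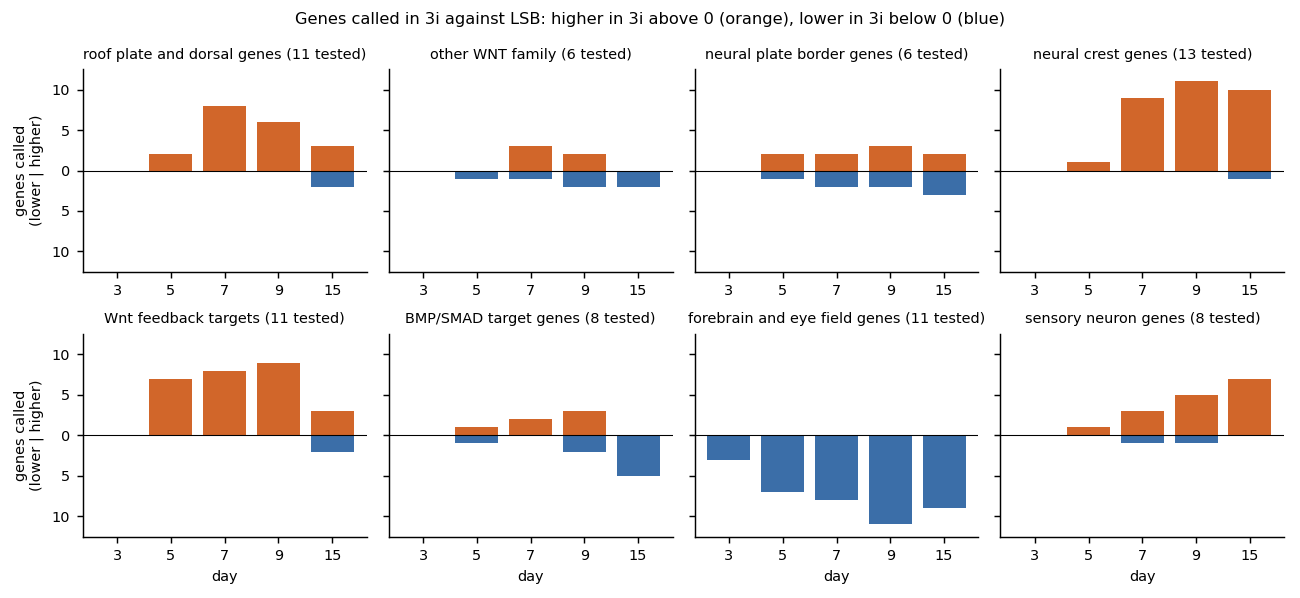
Number of genes called in 3i against LSB by day in 8 lists, higher in 3i above 0 and lower in 3i below 0, with the number tested in each title. Of 11 roof plate genes 2, 8 and 6 are higher at days 5, 7 and 9, of 11 WNT feedback genes 7, 8 and 9, and 3 of each list at day 15; 10 of 13 neural crest genes are higher and 1 lower at day 15, and 3 of 11 forebrain genes are lower at day 3.

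Markers of other cell types moved on the same days. Neural crest genes were higher for 9 of 13 tested at day 7, 11 at day 9 and 10 at day 15, where 12.8%, 8.32% and 13.3% of all genes were, and the list's medians were 2.29, 1.92 and 2.15. One crest gene was lower at day 15, SOX9 (-3.23 ± 0.42). SOX10 was higher by 4.59 ± 0.50 at day 9 (adjusted p = 1.19e-07, at least 12.8-fold). The 15 crest genes on the array had summed intensities of 20145 to 33807 on the 3i arrays of day 9 and of 3361 to 4507 on the LSB arrays, on which SOX10, FOXD3 and TFAP2B were undetected. Sensory and general neuron genes were higher for 5 of 8 at day 9 and 7 of 8 at day 15, with medians of 2.83 and 5.52 and with POU4F1 higher by 6.62 ± 0.67 at day 9 (adjusted p = 4.32e-08, at least 32.3-fold). NEUROG2 was lower at day 7 (-1.79) and at day 9 (-1.43). The summed intensities of the list at day 9 were 21193 to 63059 in 3i and 4139 to 5742 in LSB, where POU4F1, ISL1 and PRPH were undetected. Mesenchyme and smooth muscle genes were higher for 4 of 8 at day 7, 3 at day 9 and 5 at day 15, with sums at day 9 of 45638 to 47042 in 3i and 16619 to 23109 in LSB. The medians of that list were 1.15, 1.02 and 1.57, and CNN1 was lower at day 9 (-1.24). Surface ectoderm genes, the other neighbour of the border, were higher for 0 of 5 on all days, and 4 of 5 were lower at day 15. Of the keratins on this list, KRT5 and KRT14 were undetected on every array. KRT18 was detected on some array of each group other than LSB day 9 and 3i day 15. The part of these cell types in the levels of WNT1, LMX1A, MSX1 and the other genes was not tested.

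Of 11 tested forebrain and eye field genes, 8 were lower in 3i at day 7 and 11 at day 9, with medians of -3.47 and -4.21, and LHX2 differed by -5.87 ± 0.37 at day 9 (adjusted p = 8.64e-12). LMX1A also marks the floor plate of the midbrain. Of 12 floor plate and ventral genes, SHH, FOXA2, CORIN and FERD3L were detected on none of the 33 arrays, and FOXA1 was lower in 3i at day 7 (-2.98 ± 0.26, at least 3.54-fold). None of 10 mesoderm and endoderm genes was detected on all 3 arrays of any group. Of 7 tested pluripotency genes, LIN28A (1.56) and ZFP42 (1.39) were higher in 3i at day 7 and SOX2 was lower (-2.13). SOX2 alone was lower at day 9 (-3.05), and at day 15 the 7 tested genes were lower.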

How the data were processed

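Total RNA of H9 cultures was measured on 33 Illumina bead arrays. GenomeStudio is the tool that the submitters' processing notes name (version: not given in the sources used). The non-normalized table holds bead summary intensity values per probe, as deposited by the authors, without normalization between arrays per the file headers. It also holds 1 detection p-value per probe and array, as deposited, which per the file headers is the probe's detection p. The authors' second table holds normalized intensities, but of 48780 probes with values only 2395 carried the same ID as their match in the non-normalized table, so it served as an alternative matched by its ranks over the arrays. Groups and days came from the sample titles.

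In R 4.3.3 with limma 3.58.1, background was corrected by normexp with an offset of 16, estimated from the detection p-values, followed by quantile normalization and log2. Probes with 1 gene symbol (28098 of 48803) and a detection p under 0.01 on all 3 arrays of a group entered, the brightest per gene, which left 10038 genes. One linear model over the 11 groups with empirical Bayes moderation (22 residual degrees of freedom) gave 15 comparisons, with Benjamini-Hochberg adjustment over the genes of each. A standard error between groups was 0.28 at the median, and precision is limited by having 3 arrays a group. The procedure was tested on simulated data, but no result of that test is given here, so it carries no support. The members and gene lists were chosen with earlier results of these data known, so the tests of members and lists are not independent of those results. Named are the members, up to 3 called genes of each list with the largest rise and fall in a treatment comparison (2 with the largest difference where none was called), and the 3 genes most correlated with each member.

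Alternatives were another background offset, median scaling, no filter or a filter of 17 arrays, the mean of a gene's probes or its second probe, only the groups compared, array weights, the array letter as a block, the authors' processed values, and leaving out each array or the 4 A arrays. Over all groups, letters A to C did not pair the arrays: of 55 pairs of groups, 3i days 5 and 7 and 3i days 7 and 9 alone had every same-letter correlation of deviations over 0.1 (lowest 0.121 and 0.150), and the mean was 0.00384 for same and -0.00152 for different letters. No 2 arrays held identical values. No genome sequence was used, and promoter windows and loci came from RefSeq tables of GRCh38.p14.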

Additional observations from a re-analysis of the deposited data

Results flagged for a closer look

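The change over time differed between 3i and LSB, by the interaction term of the limma fit with Benjamini-Hochberg adjustment, for 3 genes between day 3 and day 9. The change in 3i minus that in LSB was 4.09 for WNT1, 5.72 for LMX1A and 3.98 for MSX1. Between day 9 and day 15 it was -3.92 for WNT1, -3.01 for WNT4, -3.55 for LMX1A, -2.90 for MSX1, -3.84 for MSX2 and -2.03 for PAX3. Part of the second interval lay in LSB, where the change from day 9 to day 15 was 2.06 for WNT4, a call, and 1.41 for MSX2, no call. No group had more than 3 arrays, so no array was tested as an outlier of its group.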

How the results depend on the processing

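The 6 tested genes gave 1500 member values over all alternatives, of which 78 lost a call, 44 gained one and 1 turned its sign with a call: WNT4 from LSB day 3 to day 7 was -0.10 and 1.10 under median scaling (adjusted p = 0.0354). The cause was not tested, except that the filter of 17 arrays leaves out WNT1, WNT4, MSX2 and PAX3 by construction. In each case the number of members called in the report comes first.

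For genes higher in 3i than in LSB, day 3 went from 1 to 0 under the filter of 17 arrays and in a fit of only the groups compared. Day 5 went from 3 to 1 under that filter and to 5 with array weights. Day 7 went from 5 to 2 and day 9 from 6 to 2 under that filter. At day 7 the PAX3 call was also lost with no filter (1.36, adjusted p = 0.056), in only the groups compared (adjusted p = 0.356), under median scaling (0.66, adjusted p = 0.33), and with the authors' processed values (0.65, adjusted p = 0.0475), each giving 4 genes, and for its second probe (0.53, adjusted p = 0.265). At day 9 those of WNT4 (0.45, adjusted p = 0.0845) and MSX2 (0.86, adjusted p = 0.0115) were lost with the processed values, which gave 4 genes. Day 15 went from 1 to 2 with a background offset of 50, median scaling, only the groups compared, or without the 4 A arrays. Genes lower at day 15 went from 2 to 1 under median scaling, and to 0 under the filter or with the authors' processed values.

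In 3i from day 3, rises to day 5 went from 2 to 1 under the filter, 0 in only the groups compared and 4 with array weights. Rises to days 7 and 9 went from 5 to 2 under the filter and 3 with the processed values. The 1 fall to day 9 went to 0 with offset 50, the filter, only the groups compared and the processed values. Falls from day 9 to day 15 went from 5 to 2 under the filter. In LSB, rises from day 9 to day 15 went from 1 to 2 under median scaling, only the groups compared, array weights, the replicate block (MSX2, 1.41, adjusted p = 0.0433) and without the 4 A arrays, and to 0 under the filter or with the processed values. Rises from day 3 to day 7 went from 0 to 3 under median scaling, rises to day 9 from 1 to 0 with offset 50 or the processed values, and falls to day 9 from 0 to 1 in only the groups compared, with array weights and without the 4 A arrays. The replicate block changed no other call of a member.

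For the difference between the arms in the change from day 3 to day 9, genes higher went from 3 to 5 under median scaling, only the groups compared and array weights, and genes lower from 0 to 1 with array weights and without the 4 A arrays. From day 9 to day 15 genes lower went from 6 to 2 under the filter. The PAX3 call of that interval was also lost with a background offset of 50 (-1.17, adjusted p = 0.0986). With the authors' processed values it was lost as well (-0.84, adjusted p = 0.0711).

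Leaving out 1 array gave 0 to 2 genes higher and 1 to 2 lower at day 15, 0 to 3 rises to 3i day 5, 3 to 5 to 3i day 7, 1 to 2 from LSB day 9 to day 15, 0 to 1 from LSB day 3 to day 7 and to day 9, and 0 to 1 genes lower for the difference from day 3 to day 9. The most similar genes rest on the measure: with Spearman's rho, 1 of 3 was shared for WNT1, WNT4 and LMX1A and 0 for MSX1, MSX2 and PAX3.

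The number of all genes called, with its lowest and highest value over the alternatives, was as follows. For 3i against LSB at day 3 it was 5 (1 to 78) higher and 21 (10 to 146) lower. For 3i against LSB at day 5 it was 110 (58 to 211) higher and 213 (111 to 428) lower. For 3i against LSB at day 7 it was 1285 (400 to 1626) higher and 653 (306 to 1310) lower. For 3i against LSB at day 9 it was 835 (386 to 989) higher and 829 (400 to 914) lower. For 3i against LSB at day 15 it was 1337 (841 to 1498) higher and 1590 (807 to 1650) lower. For 3i day 5 against day 3 it was 67 (0 to 229) higher and 122 (0 to 426) lower. For 3i day 7 against day 3 it was 551 (240 to 739) higher and 573 (273 to 769) lower. For 3i day 9 against day 3 it was 851 (417 to 944) higher and 838 (377 to 922) lower. For 3i day 15 against day 9 it was 1311 (813 to 1707) higher and 1500 (628 to 1565) lower. For LSB day 5 against day 3 it was 162 (95 to 258) higher and 228 (128 to 377) lower. For LSB day 7 against day 3 it was 684 (326 to 1066) higher and 1418 (540 to 1702) lower. For LSB day 9 against day 3 it was 731 (373 to 822) higher and 889 (393 to 996) lower. For LSB day 15 against day 9 it was 979 (476 to 1196) higher and 1006 (427 to 1089) lower. For the 3i and LSB changes from day 3 to day 9 it was 501 (346 to 1080) higher and 424 (314 to 890) lower. For the 3i and LSB changes from day 9 to day 15 it was 1271 (837 to 1505) higher and 1468 (958 to 1610) lower.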
